A study of Mus musculus with 8 samples.

Results

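The comparison described here is that of mouse embryonic stem cells depleted of Usp7 by RNA interference with their own controls. It holds 4 of the 8 RNA-seq libraries of the series, chosen by their titles: 2 of the Usp7 knockdown and 2 of the control deposited in the same count table. All cells were of E14, an established mouse embryonic stem cell line that can be grown without feeder cells, kept on gelatin in medium with 15% fetal bovine serum and 10 ng/ml of the cytokine LIF. For the knockdown, wild-type E14 cells received 1000 ng of the pSuper puro plasmid carrying an shRNA against Usp7. Selection with 1 ug/ml puromycin began 24 h later and lasted 3 days. The labels do not say whether the control cells also received a plasmid and puromycin, nor how many shRNA sequences were used. Effects of transfection, of drug selection and of off-target silencing therefore cannot be told apart from loss of Usp7. The other 4 libraries, of cells labelled Ssrp1 knockout and their controls, served only to test whether a change differed between the experiments. The labels do not name separate cultures for the 2 libraries of a group. The p-values therefore rest on the spread between these libraries, which may be technical.

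USP7 is a deubiquitinase, an enzyme that removes ubiquitin from other proteins and so can protect them from degradation. Its known substrates include the ubiquitin ligase MDM2 and the transcription factor p53 that MDM2 marks for destruction, so the enzyme can act on both sides of that loop. It also binds the maintenance DNA methylation proteins DNMT1 and UHRF1, and it is a member of a variant Polycomb repressive complex, PRC1.1. Another variant, PRC1.6, is built around PCGF6, MGA, MAX, L3MBTL2 and E2F6 and is known for keeping germline genes silent in embryonic stem cells.

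Total counts were between 16670869 and 18361130 per library, and mitochondrial genes took 1.67% to 2.44% of them. The chi-square per gene was 35.6 between the 2 controls and 11.8 between the knockdown libraries, well above what sampling alone gives. The first principal component held 62% of the variance and separated the groups, and the next held 25.8% and separated the 2 controls. Control replicate 1 stood apart by gene length: in the 10% of genes with the longest exons its median deviation from the mean of the 4 libraries was -0.28 on the log2 scale, against 0.05 to 0.12 in the others. All 10 markers of embryonic stem cell identity were above 100 CPM (counts scaled to library size), and none was called. Together these markers came to 7733 and 6520 CPM in the controls and to 5859 and 5460 CPM in the knockdown, lower in both knockdown libraries. Of 10 fibroblast markers none was called, 5 were below a mean of 1 CPM and Lum, Dcn, Postn and Twist2 were at or near 0. Their sum, of which Fn1 was the most abundant member, ran from 907 to 1590 CPM in the controls and from 1192 to 1288 CPM in the knockdown. Among the markers of primitive endoderm, trophoblast, neural, mesoderm and endothelial or blood cells, Pax6 alone was called. Summed levels of primitive endoderm (10.1 and 11.98 against 15.4 and 21.9 CPM), trophoblast (61.4 and 75.8 against 88.6 and 89.7 CPM), neural (147 and 127 against 178 and 191 CPM), mesoderm (11.8 and 13.6 against 17.7 and 20.0 CPM) and endothelial and blood markers (83.95 and 83.3 against 129 and 96.4 CPM) were higher in both knockdown libraries. Members of these sums did not all go the same way. Most of the endothelial and blood sum was Pecam1 (82.6 and 81.2 against 128 and 94.9 CPM), while Cdh5, Hbb-bh1 and Ptprc were at or near 0. The most abundant trophoblast and neural markers were Tfap2c and Tubb3. Krt8 (16.6 and 18.6 against 8.04 and 11.5 CPM) and Sox1 (8.25 and 6.05 against 5.49 and 5.38 CPM) were lower in both knockdown libraries. The part of such cells in the results below was not tested.

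Usp7 itself (chr16:8689595-8792308 on mm10) gave 386 and 381 CPM in the controls against 117 and 128 CPM under knockdown. The groups did not overlap, and Usp7 was low in the libraries labelled as knockdown. The transcript fell 3.13-fold, from 383 ± 3.52 to 123 ± 8.27 CPM (mean ± SD over 2 libraries here and below; log2 change -1.64, SE 0.19, adjusted p = 0.00124). The transcript was thus lowered and not lost. Adjusted p-values come from edgeR's quasi-likelihood F test (Benjamini-Hochberg adjustment over the whole set of tested genes), with 0.05 as the threshold for a call. Without knockdown replicate 2 the log2 change of Usp7 was -1.72 and its call was lost. Without knockdown replicate 1 the log2 change was -1.58 and the call was kept. The spread rests on the control pair alone in both fits, and why they differ was not tested.

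The knockdown was marked by genes that went up. Germline and meiosis genes, p53 targets and a low-level set of 2-cell-like genes rose, and enzymes of serine and amino acid metabolism fell. The test called 376 of 15915 genes higher (2.36%) and 100 lower (0.628%), which makes 476 (2.99%). Of these genes 14422 passed the filter on low counts on the controls alone, that is in both of them. The rest needed a knockdown library to pass. Among the 14422, 282 were called higher (1.96%) and 100 lower. Among the 376 genes called higher, 339 changed more than 2-fold and 86 more than 8-fold, around a median of 1.83 in log2 units. Their median level went from 4.13 to 15.4 CPM, and 102 had a control mean under 1 CPM. The genes called lower had a median log2 change of -1.23, 77 were over 2-fold, and their median level went from 30.5 to 12.4 CPM. The plot of change against level shows this asymmetry. The median log2 change of all genes tested was -0.02, and 2657 had an unadjusted p under 0.05.

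**Figure D1:**
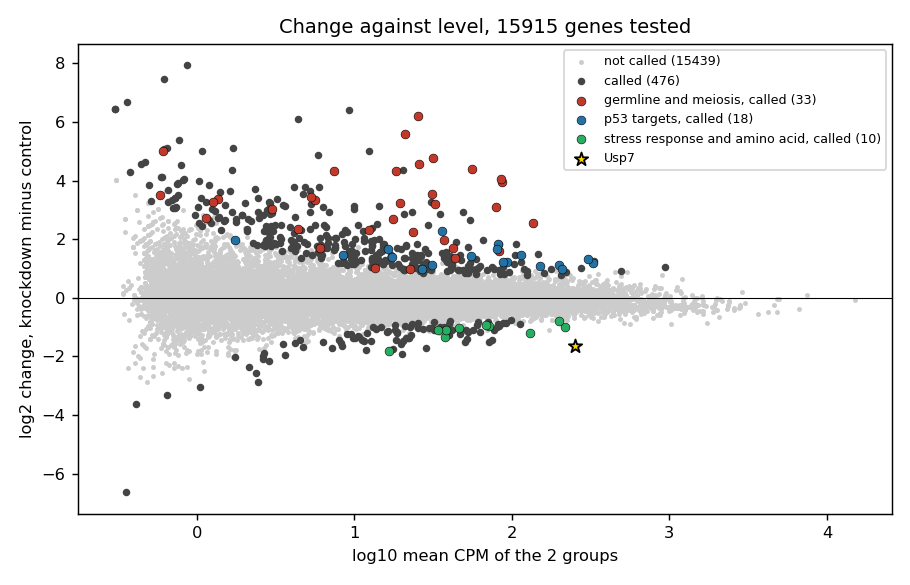
Log2 change between knockdown and control for each of 15915 genes tested, against the log10 of the mean CPM of the 2 groups. Grey points were not called, dark points were, and colours mark called members of 3 gene lists; 376 genes lie above 0 as called and 100 below, and germline genes are among the highest points.

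The number of calls depended on single libraries. Leaving out control replicate 1 gave 624 and leaving out control replicate 2 gave 3770, while the fit had 334 calls without knockdown replicate 1 and 42 without knockdown replicate 2. Sizes moved less: over the called genes named below, leaving out a library moved the log2 change by a median of 0.16 to 0.17, and no call turned in direction. The largest moves were 0.60 and 0.98 without knockdown replicates 1 and 2, and 2.38 and 3.75 without control replicates 1 and 2. Genes with almost no control counts moved far, such as Usp17le, from 5.11 to 8.87, and Rad21l, from 5.03 to 7.40, both without control replicate 2. The 13 genes that kept their call whichever library was left out were Zfp541, Taf7l, Mlc1, Tex101, Rbm46, Tdrd1, Slc25a31, Dazl, Btbd18, Sycp2, Tdrd9, Mov10l1 and Perp, of 78 called genes followed by name. Without knockdown replicate 2, 64 of the 78 lost their call, against 26 without knockdown replicate 1, 15 without control replicate 1 and 0 without control replicate 2. After a correction for GC content and exon length 478 genes were higher and 267 lower, so that the share of higher calls went from 79.0% to 64.2%.

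Germline and meiosis genes were the list with the most called members. Members of this and the other lists were chosen with earlier results of these data known. Their shares beside all genes therefore describe these data and are not a test. Of 71 listed genes 70 were matched and 60 tested, 33 rose, none fell and 27 were not called, where 2.36% of all genes tested were called higher. The median log2 change of the tested members was 1.62, beside -0.02 over all genes. In 45 of the 60 both knockdown libraries lay above both controls, which was so for 24.6% of all genes tested, and in 4 both lay below, against 23.4%. The controls alone would have let 51 members through the filter on low counts, and the rest needed a knockdown library to pass. Among the 51, 25 rose, with a median of 1.36. Summed over the list, the controls had 923 and 906 CPM and the knockdown 2273 and 2684 CPM. Fold changes of the 33 ran from 1.97 to 73.4 with a median of 9.47, and 10 of them had a control mean under 1 CPM. In 27 of the 33, knockdown replicate 2 was above replicate 1. Without knockdown replicate 2 the number called was 17, and it was 30 to 41 without each of the others.

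Regulators and RNA-binding proteins of germ cells rose from a low but measurable base. Dazl, an RNA-binding regulator of germ cell translation (chr17:50279395-50293636), had 4.42 and 5.69 CPM in the controls against 94.4 and 117 CPM under knockdown. Both knockdown libraries were far above both controls, and the level rose 20.9-fold (log2 change 4.38, SE 0.24, adjusted p = 1.18e-05). Ddx4, the helicase known as Vasa, had 9.13 and 12.1 CPM against 139 and 187 CPM and rose 15.4-fold (adjusted p = 1.81e-05). Taf7l, a germ cell paralogue of a subunit of the general transcription factor TFIID (chrX:134460118-134476490), went from 0.589 and 0.763 CPM to 39.7 and 60.6 CPM. It had the largest fold change of the list, 73.4 (log2 change 6.20, SE 0.34, adjusted p = 1.18e-05). The bHLH factor genes Sohlh2 and Figla were also called. Sohlh2 had 15.6 and 14.9 CPM against 34.8 and 25.3 CPM, the smallest rise among the 33 called at 1.97-fold (adjusted p = 0.0477). Figla rested on 3 control counts against 39, a ratio of 12.2 with an exact 95% binomial interval of 3.88 to 61.7 that covers counting error only.

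Genes of the piRNA pathway, which silences transposons in germ cells through small RNAs bound to PIWI proteins, were among those that rose. Piwil2, encoding the PIWI protein MILI, had 14.4 and 18.3 CPM in the controls against 124 and 158 CPM under knockdown, an 8.66-fold rise (adjusted p = 4.1e-05). Mov10l1, the helicase needed to make piRNAs (chr15:88982909-89055152), went from 8.37 and 10.9 CPM to 131 and 191 CPM, or 16.7-fold (log2 change 4.07, SE 0.26, adjusted p = 1.81e-05). Tdrd1, a Tudor-domain scaffold (chr19:56826209-56870012), went from 1.89 and 2.58 CPM to 54.3 and 68.2 CPM, or 27.3-fold (log2 change 4.77, SE 0.27, adjusted p = 1.18e-05). None of these 3 genes had overlapping groups. Tdrd9, Tdrkh, Mael, Fkbp6 and Tdrd12 were called too, with log2 changes of 4.31, 3.20, 3.54, 2.35 and 1.701. Outside the calls were the PIWI genes Piwil1 and Piwil4, with log2 changes of 0.88 (adjusted p = 0.325) and -0.25 (adjusted p = 0.728), and Tdrd5 at 1.44 (adjusted p = 0.0516).

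The machinery of meiotic chromosomes was split. Sycp1, the transverse filament of the synaptonemal complex that joins paired chromosomes, had 1.65 and 5.81 CPM in the controls against 29.2 and 41.7 CPM and rose 9.47-fold (adjusted p = 0.00331). Sycp2, an axial element (chr2:178345293-178407685), had 0.825 and 2.58 CPM against 30.4 and 39.2 CPM and rose 20.3-fold (adjusted p = 0.000381). In both genes control replicate 2 was well above control replicate 1, and both knockdown libraries were above them. Hormad1 rose 4.79-fold, Syce1 3.90-fold, Syce3 6.62-fold, Majin, which ties telomeres to the nuclear envelope, 3.25-fold, and Sycp3 2.04-fold. The meiotic cohesin gene Rad21l had 1 count in the controls and 43 in the knockdown, a ratio of 40.3 (interval 6.86 to 1630), and was too low to be tested without knockdown replicate 2. The other meiotic cohesin genes were already expressed and did not pass: Stag3 had 150 and 197 CPM against 259 and 276 CPM (adjusted p = 0.144), Smc1b a log2 change of 0.63 (adjusted p = 0.418) and Rec8 0.38 (adjusted p = 0.405). The recombinase gene Dmc1 had a log2 change of -0.33 (adjusted p = 0.604), Syce2 -0.68 (adjusted p = 0.103), and Stra8, which acts at entry into meiosis, 0.50 (adjusted p = 0.456).

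Testis genes with other roles rose as well. Tex101, a germ cell surface protein (chr7:24668007-24676675), went from 0.943 and 0.763 CPM to 33.0 and 49.3 CPM, or 47.9-fold (log2 change 5.58, adjusted p = 1.49e-05). Slc25a31, the ADP/ATP carrier of testis mitochondria (chr3:40708855-40726096), went from 2.36 and 1.76 CPM to 40.6 and 57.7 CPM, or 23.8-fold (adjusted p = 1.81e-05). Tex19.1 was the most abundant of the called members, at 45.1 and 33.6 CPM against 178 and 286 CPM (5.90-fold, adjusted p = 0.000607). Its paralogue Tex19.2, and Tuba3a and Tuba3b, are close copies whose reads can be shared out wrongly, which leaves their single values uncertain. The X-linked genes Tex11, Mageb4, Nxf2 and Tex13b were called as well, while the X-linked copies Xlr3a, Xlr3b and Xlr3c had log2 changes of -0.86, -0.05 and -0.93 and did not pass. Ooep, Zp3, Gdf9, Dnd1, Prdm1 and Dppa3 were not called, while Figla and Sohlh2 of the same list were, as given above. The plot of germline genes shows all 60 tested members by library.

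**Figure D2:**
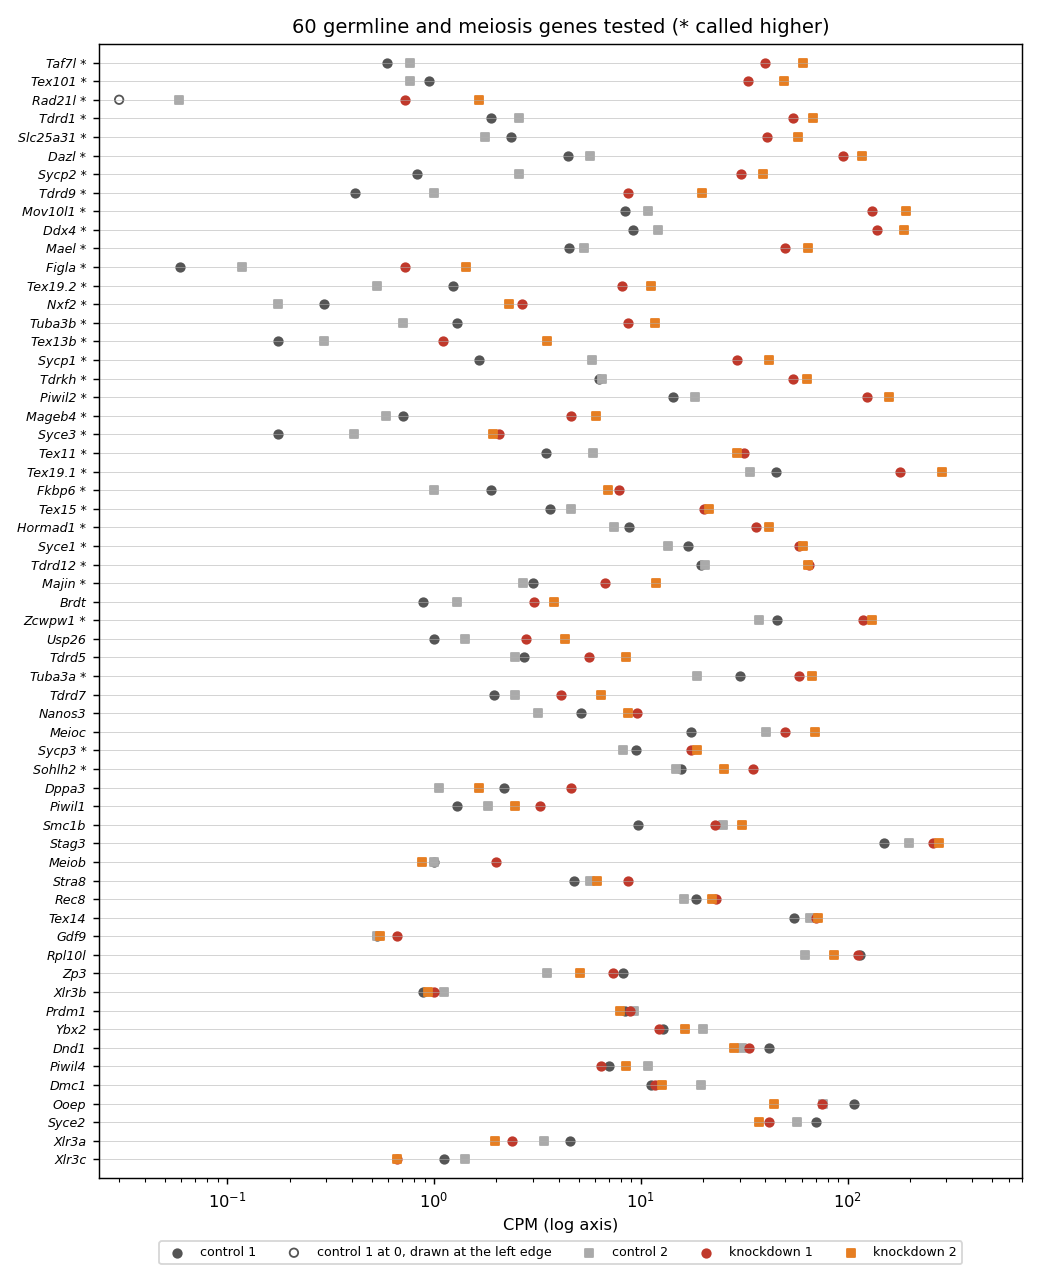
CPM on a log axis of the 60 tested germline and meiosis genes in each of the 4 libraries, ordered by log2 change, with an asterisk for the 33 called higher. At the top, control and knockdown points lie more than 10-fold apart, and at the bottom they mix; the 1 value of 0, of Rad21l in control replicate 1, is drawn open at the left edge.

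Few transcripts of the repressor complexes themselves were called. With 2 libraries a group this does not show that the others were unchanged. Of 15 tested PRC1.6 genes only E2f6 was called (6.67%, beside 2.36% of all genes called higher). This gene of the DNA-binding repressor E2F6 (chr12:16810963-16839742) had 30.8 and 35.2 CPM in the controls against 69.7 and 79.7 CPM under knockdown, a 2.26-fold rise (log2 change 1.18, SE 0.19, adjusted p = 0.00995). Its adjusted p was 0.379 without knockdown replicate 2. Pcgf6 stood at 0.05 (adjusted p = 0.918) and L3mbtl2 at 0.08 (adjusted p = 0.876) in log2 change. Mga had 185 and 345 CPM in the controls against 399 and 417 CPM, so that control replicate 1 stood apart, and it did not pass (adjusted p = 0.272). In the other PRC1 list of 25 genes, Usp7 fell and Bmi1, a subunit of canonical PRC1, rose 2.17-fold from 8.21 ± 1.31 to 17.9 ± 0.548 CPM (adjusted p = 0.035), a call that ended without either knockdown library. Rnf2, Ring1, Bcor and Kdm2b had log2 changes of 0.23, -0.40, 0.27 and 0.25 with adjusted p between 0.486 and 0.566. None of 14 PRC2 genes, 21 DNA methylation and demethylation genes or 30 genes of retroelement silencing and H3K9 methylation was called. Dnmt1 was at 477 and 504 CPM against 476 and 463 CPM (adjusted p = 0.91) and Uhrf1 at 568 ± 12.1 against 441 ± 7.55 CPM (adjusted p = 0.382).

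The start regions of the germline genes are shown because MGA with MAX and E2F6 are known to read short DNA motifs there. RefSeq windows on GRCm38.p6, from 250 bases before to 50 bases after a start site, were available for 29 of the 33 called germline genes. They were searched on both strands for CACGTG, the E-box, which is its own reverse complement, and for GCGGGAA, an E2F-type site. Both motifs were chosen after the rise of the germline genes had been seen. The sequences below run 5′ to 3′ along the gene, with matches to either motif in capitals. They were chosen by hand after the matches were known, 5 to show where matches lie and 2, of Dazl and Tex101, without a match, so they do not stand for the whole group. Only the first of the 3 Tdrd1 windows is printed, and the window of its most downstream start holds neither motif.

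Taf7l, chrX:134476441-134476740, minus strand: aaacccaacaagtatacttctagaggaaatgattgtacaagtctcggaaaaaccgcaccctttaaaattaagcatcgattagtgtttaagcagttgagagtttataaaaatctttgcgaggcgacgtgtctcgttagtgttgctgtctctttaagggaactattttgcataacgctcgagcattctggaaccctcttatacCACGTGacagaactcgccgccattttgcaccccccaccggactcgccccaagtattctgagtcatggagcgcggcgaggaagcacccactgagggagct
Tdrd1, chr19:56825959-56826258, plus strand: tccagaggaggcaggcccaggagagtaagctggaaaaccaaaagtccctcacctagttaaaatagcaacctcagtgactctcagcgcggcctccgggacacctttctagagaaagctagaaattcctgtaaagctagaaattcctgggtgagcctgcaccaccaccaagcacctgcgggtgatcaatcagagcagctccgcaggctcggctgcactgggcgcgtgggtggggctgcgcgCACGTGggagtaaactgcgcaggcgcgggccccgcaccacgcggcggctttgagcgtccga
Slc25a31, chr3:40708621-40708920, plus strand: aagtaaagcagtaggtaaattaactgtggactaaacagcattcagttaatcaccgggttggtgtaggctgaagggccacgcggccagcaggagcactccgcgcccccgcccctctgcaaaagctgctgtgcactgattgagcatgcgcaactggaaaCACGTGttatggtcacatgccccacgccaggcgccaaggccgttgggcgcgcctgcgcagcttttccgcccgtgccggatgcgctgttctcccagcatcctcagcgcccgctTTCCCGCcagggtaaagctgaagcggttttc
Ddx4, chr13:112652261-112652560, minus strand: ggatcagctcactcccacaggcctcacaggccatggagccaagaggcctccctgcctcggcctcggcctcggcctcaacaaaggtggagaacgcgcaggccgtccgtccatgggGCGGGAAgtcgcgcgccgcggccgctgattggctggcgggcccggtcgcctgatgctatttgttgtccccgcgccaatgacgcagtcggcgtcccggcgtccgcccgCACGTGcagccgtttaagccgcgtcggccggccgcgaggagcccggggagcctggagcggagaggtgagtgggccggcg
Hormad1, chr3:95559427-95559726, plus strand: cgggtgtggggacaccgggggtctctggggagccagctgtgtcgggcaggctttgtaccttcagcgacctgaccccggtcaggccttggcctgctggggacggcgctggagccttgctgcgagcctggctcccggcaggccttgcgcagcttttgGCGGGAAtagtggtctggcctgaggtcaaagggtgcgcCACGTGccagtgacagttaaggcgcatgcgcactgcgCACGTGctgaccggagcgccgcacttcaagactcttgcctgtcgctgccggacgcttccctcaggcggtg
Dazl, chr17:50293571-50293870, minus strand: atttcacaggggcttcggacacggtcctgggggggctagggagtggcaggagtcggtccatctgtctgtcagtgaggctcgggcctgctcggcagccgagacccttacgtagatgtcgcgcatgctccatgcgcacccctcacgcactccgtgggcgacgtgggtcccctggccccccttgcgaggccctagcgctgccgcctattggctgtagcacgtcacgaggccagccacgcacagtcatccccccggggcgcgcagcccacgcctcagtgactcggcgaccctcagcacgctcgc
Tex101, chr7:24672001-24672300, minus strand: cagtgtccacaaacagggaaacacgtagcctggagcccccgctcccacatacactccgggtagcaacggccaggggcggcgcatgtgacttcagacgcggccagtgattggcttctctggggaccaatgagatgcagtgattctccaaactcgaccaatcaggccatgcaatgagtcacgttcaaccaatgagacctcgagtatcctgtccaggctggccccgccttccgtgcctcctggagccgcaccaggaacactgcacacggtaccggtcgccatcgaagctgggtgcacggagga

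In these windows the E-box began 49 bases before the start of Taf7l, 11 before that of Tdrd1, 93 before that of Slc25a31, 29 before that of Ddx4, and 57 and 20 before that of Hormad1. Slc25a31, Ddx4 and Hormad1 also held an E2F-type match, and the Dazl and Tex101 windows held neither motif, nor did those of Rad21l and Sycp2. Of the 29 called germline genes 12 (41.4%) had an E-box in a window, against 11.7% of the 11250 tested genes with a window and 8.1% of all genes in the table. The share was 21.7% (5 of 23) among germline genes tested and not called, 14.9% among the other genes called higher and 15.3% among genes called lower. GCGGGAA was in 24.1% of the called germline genes, 30.4% of those not called and 9.9% of all tested. A match is a description of letters in these windows and not evidence of binding.

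Targets of p53 rose as well, by smaller factors. Of 50 listed genes 49 were tested, 18 rose (2.36% of all genes did) and none fell, with a median log2 change of 0.74. In 37 both knockdown libraries lay above both controls, which was so for 24.6% of all genes. Fold changes of the 18 ran from 1.96 to 4.85, and the list as a whole summed to 3571 and 3240 CPM against 5403 and 5997 CPM. The number called was 1, Perp, without knockdown replicate 2, 13 without replicate 1, and 21 and 26 without control replicates 1 and 2.

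At the centre of the pathway, the gene of p53 itself did not pass. Trp53 (chr11:69580359-69591873) had 508 and 369 CPM in the controls against 487 and 521 CPM under knockdown, so the groups overlapped (log2 change 0.20, SE 0.22, adjusted p = 0.692). Mdm2, the ligase that marks p53 for destruction and is itself a p53 target (chr10:117688875-117710758), had 133 and 120 CPM against 244 and 299 CPM and rose 2.15-fold (log2 change 1.103, SE 0.20, adjusted p = 0.0139). Its partner Mdm4 had 239 and 397 CPM against 564 and 608 CPM. Both knockdown libraries were higher, yet the spread of the controls left it outside the calls (log2 change 0.88, SE 0.25, adjusted p = 0.0983). Cdkn1a, encoding the cell cycle inhibitor p21 (chr17:29090976-29100727), had 59.4 and 61.4 CPM against 159 and 177 CPM and rose 2.78-fold (log2 change 1.48, SE 0.18, adjusted p = 0.00181). Without knockdown replicate 2, the log2 changes of Mdm2 and Cdkn1a were 0.95 and 1.39 and their adjusted p 0.524 and 0.136.

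Further p53 targets gave the clearest separation. Perp, a membrane protein of cell junctions and apoptosis, had 12.9 and 11.8 CPM against 51.9 and 67.9 CPM and rose 4.85-fold (log2 change 2.28, SE 0.22, adjusted p = 0.000503). Plk2, a kinase, rose 3.55-fold from 36.0 ± 2.91 to 128 ± 19.5 CPM (adjusted p = 0.000853), and Btg2, an antiproliferative factor, rose 3.17-fold from 38.6 ± 2.11 to 122 ± 7.06 CPM (adjusted p = 0.000952). Ccng1, encoding cyclin G1, and Trp53inp1 rose 2.26- and 2.52-fold, and both are among the most abundant genes called higher. The noncoding RNA Trp53cor1, next to Cdkn1a, rose 3.92-fold at under 3 CPM, and lost its call without control replicate 1 or either knockdown library. Also called were Zmat3, Eda2r, Polk, Ddit4l, Ak1, Ptp4a3, Lif, Ephx1, Dcxr and Zfp365. The death genes Bax, Bbc3 and Pmaip1 did not pass, unlike Perp. Bax had a log2 change of -0.10 (adjusted p = 0.879), Bbc3 0.28 (adjusted p = 0.486) and Pmaip1 0.91 (adjusted p = 0.084). A list of 27 apoptosis genes had none called and a median of 0.01. The plot of p53 pathway genes sets these levels side by side.

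**Figure D3:**
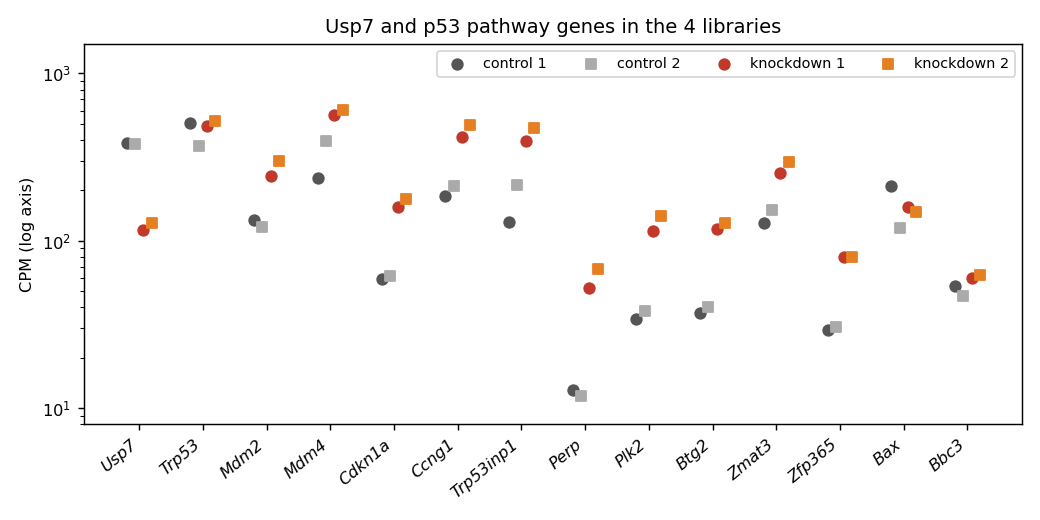
CPM on a log axis of Usp7 and 13 p53 pathway genes in the 2 control and 2 knockdown libraries. Cdkn1a, Mdm2, Ccng1, Perp, Plk2 and Btg2 have both knockdown points above both control points, while those of Trp53 and Bax mix; Usp7 has both knockdown points near 120 CPM.

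Of 46 tested genes of the G1/S transition and DNA replication 3 rose and none fell, beside 2.36% and 0.628% of all genes. The median log2 change of the 46 was -0.26. In 26 of them both knockdown libraries lay below both controls (23.4% of all genes), and in 7 above. Summed over the list, the level was 9271 and 7916 CPM against 7428 and 6626 CPM. The 3 that rose were Rb1 (14.9 ± 2.96 to 32.9 ± 0.248 CPM, adjusted p = 0.0208), which encodes the retinoblastoma protein, its relative Rbl2 (12.6 ± 3.30 to 26.4 ± 1.78 CPM, adjusted p = 0.0427), and Ccnd2, encoding cyclin D2 (19.4 ± 2.09 to 38.7 ± 8.75 CPM, adjusted p = 0.0423). Rb1 and Rbl2 lost their calls when either knockdown library was left out, and Ccnd2 lost its call without knockdown replicate 2. Rbl2 also lost its call without control replicate 1. Ccne1, encoding cyclin E1, had 324 and 236 CPM against 170 and 159 CPM and did not pass (adjusted p = 0.0826). None of 29 G2/M and mitosis genes was called.

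A set of genes known from the 2-cell embryo, which a small fraction of embryonic stem cells expresses at any time, rose at low level. Of 57 listed genes 54 were matched and 8 of these had no count in any library. Of these 27 were tested, 11 of which passed the filter on the controls alone. The rest needed a knockdown library to pass, which favours genes that are higher there. Among the 11, 6 rose and none fell, with a median log2 change of 1.56, where 1.96% of all genes that passed on the controls were called higher. In all 18 were called, at fitted fold changes of 2.94 to 34.5. Of these 18, 8 were Zscan4 genes, which act in telomere upkeep and mark this state. Zscan4c had 1.30 and 0.822 CPM in the controls against 7.65 and 6.92 CPM under knockdown, a 6.84-fold rise (log2 change 2.77, SE 0.38, adjusted p = 0.00348). The others called were Usp17-like deubiquitinase genes, Eif1a-like predicted genes and Rbm44, which had 5.54 and 9.16 CPM against 21.2 and 22.02 CPM. Usp17le rested on 3 control counts against 119, a ratio of 37.2 (interval 12.4 to 183). Zscan4 and Usp17l genes are near-identical copies, so their single values are uncertain. Summed over the whole list, the level was 331 and 264 CPM against 348 and 337 CPM, and most of it was Tbx3 (242 and 186 CPM against 164 and 176 CPM), a member that is abundant in embryonic stem cells and was not called. Without knockdown replicate 2 the number called was 2, and it was 14 to 20 without each of the others.

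Regulators of body plan and lineage showed scattered rises. Of 39 HOX genes, which set position along the body axis, 15 were tested, 7 of which passed the filter on the controls alone. In all 5 rose and none fell, 2 of them among the 7, beside 2.36% of all genes called higher. Hoxa7 had 0.943 and 0.470 CPM against 6.43 and 6.26 CPM (log2 change 3.15, SE 0.43, adjusted p = 0.00336), and Hoxc13 had 4.65 and 4.87 CPM against 10.3 and 11.5 CPM (adjusted p = 0.0426). Hoxa10, Hoxd9 and Hoxd13 were also called, Hoxd9 on 3 control counts against 44 (ratio 13.8, interval 4.41 to 69.3). The HOX genes together came to 18.97 and 23.7 CPM against 46.3 and 56.6 CPM. None was called without knockdown replicate 2, 2 without replicate 1, and 3 and 8 without control replicates 1 and 2.

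Of 21 neural and ectoderm genes tested 18 passed the filter on the controls alone. In all 4 rose and 1 fell, beside 2.36% and 0.628% of all genes. Those called higher numbered 0 and 2 without knockdown replicates 2 and 1, and 3 and 7 without control replicates 1 and 2, and those called lower 0 without knockdown replicate 2 and 4 without control replicate 2. Neurod1, a proneural factor, had 3.59 and 5.46 CPM against 18.5 and 18.4 CPM (4.07-fold, adjusted p = 0.00336). Pax6, a factor of eye and forebrain, had 9.54 and 7.34 CPM against 21.1 and 19.5 CPM (2.40-fold, adjusted p = 0.0201). Meis1, a HOX cofactor, rose 4.84-fold at under 5 CPM, and Nkx2-2 rested on 2 control counts against 41. These 2 did not reach the filter cutoff in both controls and needed a knockdown library to pass. Among the 18, 2 rose and 1 fell, where 1.96% of genes that passed on the controls were called higher. The homeobox gene Vax2 fell 3.48-fold, from 18.4 ± 5.49 to 5.30 ± 0.738 CPM (adjusted p = 0.00856). Of 19 mesoderm genes tested, 10 of which passed the filter on the controls alone, only Mesp2 was called (5.26%, beside 2.36% called higher of all genes). Mesp2, a factor of somite formation, went from 3.03 ± 0.964 to 13.6 ± 0.299 CPM (adjusted p = 0.00405). Wnt6 and Wnt8a, secreted WNT ligands, rose 2.42- and 6.62-fold among 27 WNT genes (7.41%, beside 2.36% of all genes). Id2, an inhibitor of bHLH factors, rose 2.59-fold. The imprinted genes Plagl1 and Ndn rose 2.72- and 2.57-fold, while Nnat and Phlda2 fell 2.74- and 2.23-fold. These were 5.13% of 39 tested in each direction, beside 2.36% and 0.628% of all genes, and leaving out 1 library moved the counts to between 0 and 12 higher and 0 and 4 lower, both extremes coming without knockdown replicate 2 and without control replicate 2. Egr1, an immediate early factor downstream of growth factor signalling, had 118 and 94.7 CPM against 20.8 and 52.98 CPM and fell 2.87-fold (adjusted p = 0.042).

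Genes of amino acid synthesis and of the integrated stress response were the list with the most members called lower. This response, driven by the transcription factor ATF4, raises amino acid synthesis and transport when amino acids run short or proteins misfold. Of 39 listed genes 38 were tested, 10 fell and none rose, where 0.628% of all genes tested were called lower. The median log2 change was -0.59. In 27 both knockdown libraries lay below both controls (23.4% of all genes tested), and in 1 above (24.6% of all genes tested). Summed over the list, the controls had 6819 and 6158 CPM and the knockdown 4540 and 4825 CPM, and fold changes of the 10 ran from 1.75 to 3.48. The number called was 0 without knockdown replicate 2 and 4 without replicate 1, and 13 and 22 without control replicates 1 and 2.

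Transcripts of all 3 enzymes of serine synthesis fell. Phgdh, its first enzyme, had 191 and 174 CPM in the controls against 89.4 and 69.9 CPM under knockdown (log2 change -1.20, SE 0.20, adjusted p = 0.0102). Psat1, the next enzyme, had 286 and 291 CPM against 141 and 149 CPM (log2 change -0.99, SE 0.18, adjusted p = 0.0167). Psph, the last, went from 46.6 ± 4.73 to 21.5 ± 3.34 CPM (adjusted p = 0.0178). In each of the 3 genes both knockdown libraries were well below both controls. Shmt2, which turns serine into glycine in mitochondria, had 478 and 409 CPM against 237 and 274 CPM and missed the threshold (adjusted p = 0.0623).

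The glutathione-degrading enzyme gene Chac1 had the largest change of the group, with 28.4 and 23.5 CPM against 5.49 and 9.39 CPM (3.48-fold, log2 change -1.80, SE 0.28, adjusted p = 0.00837). Pck2, mitochondrial PEP carboxykinase, had 51.4 and 56.4 CPM against 20.8 and 21.3 CPM (adjusted p = 0.00425). Trib3, a pseudokinase induced by ATF4, went from 52.1 ± 0.835 to 24.1 ± 0.502 CPM (adjusted p = 0.0116). Cth of cysteine synthesis, Aldh18a1 of proline synthesis, the alanine aminotransferase gene Gpt2 and Sars, the seryl-tRNA synthetase gene, fell 2.06-, 1.94-, 1.90- and 1.75-fold. Transcripts of the factors at the top did not pass. Atf4 had 401 and 331 CPM against 234 and 264 CPM (adjusted p = 0.186), and Ddit3, encoding CHOP, had 16.8 and 22.7 CPM against 10.1 and 16.9 CPM with groups that overlapped (adjusted p = 0.368). Asns, asparagine synthetase, was at 308 ± 11.5 against 190 ± 18.2 CPM (adjusted p = 0.0822). The plot of these genes shows all 38.

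**Figure D4:**
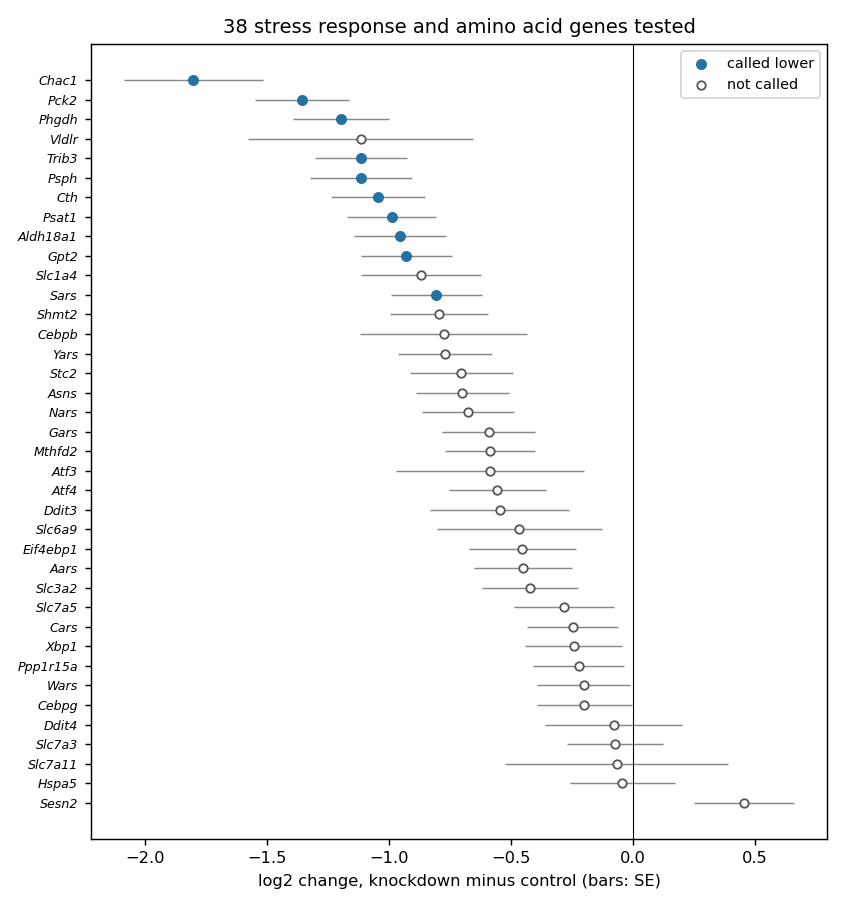
Log2 change between knockdown and control of the 38 tested genes of the integrated stress response and amino acid metabolism, with bars of 1 standard error. Blue marks the 10 called lower, from Chac1 at -1.80 to Sars at -0.80; most of the uncalled genes also lie below 0.

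Few other metabolic genes passed the test. Of 40 glycolysis and hypoxia genes 2 fell (0.628% of all genes did), with a median of -0.56, and in 28 both knockdown libraries lay below both controls (23.4% of all genes). They were Aldoc, an aldolase (32.3 ± 10.4 to 12.4 ± 3.44 CPM, adjusted p = 0.0265), and Vegfa, the angiogenic growth factor (77.3 ± 24.8 to 36.0 ± 4.77 CPM, adjusted p = 0.0356). Calls among them were 0 and 3 without knockdown replicates 2 and 1, and 11 and 15 without control replicates 1 and 2. The abundant Ldha had 2502 and 1996 CPM against 1554 and 910 CPM and did not pass (adjusted p = 0.155). Of 35 cholesterol and fatty acid genes only Dhcr7, the last enzyme of cholesterol synthesis, fell (adjusted p = 0.0464), with 0 called without either knockdown library and 5 without either control. Of 83 ribosomal protein genes 1 was called, the testis-biased paralogue Rpl39l, which fell from 29.8 ± 10.8 to 10.7 ± 2.68 CPM (adjusted p = 0.0226). Summed ribosomal protein transcripts were 102700 and 74190 CPM in the controls against 77040 and 66040 CPM, so that control replicate 1 stood apart, and 43 of these genes were called lower without control replicate 2.

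The pluripotency network showed no called change. None of 39 core and naive pluripotency genes passed, with a median log2 change of -0.06. Pou5f1, encoding OCT4, had 1493 and 1024 CPM against 1050 and 954 CPM with overlapping groups (adjusted p = 0.547). Sox2 had 551 and 508 CPM against 413 and 427 CPM (adjusted p = 0.428), and Nanog 485 and 422 CPM against 575 and 523 CPM (adjusted p = 0.538). Klf4 came nearest, at 167 ± 8.86 against 100 ± 8.53 CPM (adjusted p = 0.0611). With 2 libraries a group these values do not show that the network was unaffected.

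For every list, calls stand beside 2.36% of all genes called higher and 0.628% called lower. Of the 42 gene lists 24 had a called member and 18, with 474 tested members, had none. Medians of those 18 lay between -0.17 and 0.15. They included the 34 other ubiquitin-specific proteases, 29 histone ubiquitination enzymes, 37 proteasome and ubiquitin genes and 28 interferon and innate sensing genes. Of 40 USP7 substrates and partners only Mdm2 and Usp7 itself were called; none was without knockdown replicate 2, and 9 were higher and 4 lower without control replicate 2. Of 28 FACT and histone chaperone genes only Chaf1b, a subunit of the chromatin assembly factor CAF-1, fell (90.1 ± 5.34 to 50.4 ± 7.40 CPM, adjusted p = 0.0437). None of them was called lower without either knockdown library, and 11 were without control replicate 2. Of the FACT genes, Ssrp1 stood at -0.38 (adjusted p = 0.396) and Supt16 at 0.13 (adjusted p = 0.806) in log2 change. The plot of gene lists gives the spread of 13 of them.

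**Figure D5:**
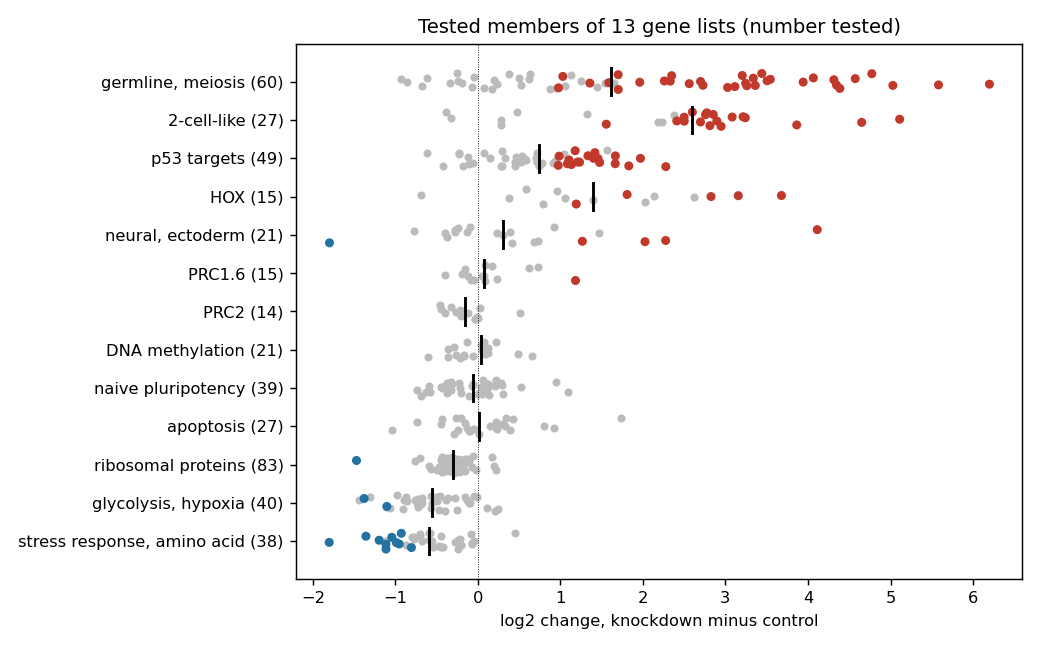
Log2 change of each tested gene in 13 gene lists, with called genes in red (higher) or blue (lower) and a black bar at the median of each list. The 2-cell-like, HOX, germline, neural, p53 target and apoptosis lists include genes that needed a knockdown library to pass the low-count filter. Their medians were higher with these genes included. On members that passed on the controls alone they were, in that order, 1.56, 0.78, 1.36, 0.07, 0.73 and -0.04. The stress response list has a median of -0.59.

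Of the 376 genes called higher 284 were in none of the lists, and of the 100 called lower 78. The largest rise of all named genes was that of Zfp541, a zinc finger gene known from spermatocytes, with 0.177 and 0.235 CPM against 9.31 and 27.3 CPM (log2 change 6.43, SE 0.64, adjusted p = 0.00053). Mlc1, a membrane protein of astrocytes, had 0.0589 and 0.176 CPM against 6.10 and 11.2 CPM (adjusted p = 0.000503). Mlc1 lies next to Mov10l1 and the predicted gene Gm8702, and all 3 were called higher within chr15:88955884-89055152. Since the strand setting of the counting is not given in the sources used here, reads from overlapping or antisense transcripts in that stretch cannot be told apart. Rbm46, a germ cell RNA-binding protein gene, and Btbd18, needed for piRNA precursor transcription, rose from 0.383 ± 0.209 to 11.4 ± 4.37 CPM and from 1.85 ± 0.129 to 38.6 ± 13.5 CPM. Abundant genes that rose included Mlec (342 ± 8.45 to 638 ± 48.8 CPM), Fat1, a giant cadherin (196 ± 45.8 to 465 ± 76.0 CPM), Mcm3ap and Arid5b.

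Among the genes that fell most were Grin1, a glutamate receptor subunit, Aim2, a sensor of cytosolic DNA, Slfn9, the linker histone gene H1fx and the noncoding RNA Platr14. Aim2 had 29.5 and 33.9 CPM against 7.98 and 8.57 CPM (log2 change -1.94, SE 0.22, adjusted p = 0.00124). Platr14 had 46.5 and 41.5 CPM against 17.9 and 8.84 CPM (adjusted p = 0.0125), and H1fx went from 29.7 ± 10.1 to 9.90 ± 0.573 CPM (adjusted p = 0.0112). Vax2, Ankrd34a, Prrx2, Mef2b and Cyp39a1 fell 2.96- to 3.48-fold. The most abundant genes that fell were Usp7, the amino acid genes Psat1, Sars and Phgdh described above, Ucp2, a mitochondrial carrier (log2 change -0.90), and Hap1 (log2 change -0.77).

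Whether a change differed from that in the Ssrp1 experiment was tested in 1 model over all 8 libraries. SSRP1 is a subunit of the histone chaperone FACT. The experiments have their own controls and differ in the way the gene was targeted. Ssrp1 itself gave 6447 and 8122 counts in that experiment's controls. The libraries labelled knockout gave 6074 and 2182, so replicate 1 of these was near the controls and they are knockout libraries by label only. Of 17052 genes tested 171 (1.00%) differed. Among 60 germline genes 10 had a larger rise in the Usp7 knockdown and none a smaller one: Ddx4, Mael, Syce1, Taf7l, Tdrd1, Tdrd12, Piwil2, Mov10l1, Slc25a31 and Tex101. For Tdrd1 the log2 change exceeded that of the Ssrp1 experiment by 4.20 (SE 0.45, adjusted p = 0.0078), and for Piwil2 by 2.57 (SE 0.33, adjusted p = 0.0119). For Dazl the difference of 1.35 did not pass (adjusted p = 0.0848). Of 49 p53 targets only Perp differed (2.83, SE 0.50, adjusted p = 0.029), and of 27 2-cell-like genes only Calcoco2 did, which was not called in the Usp7 knockdown. No stress response or HOX gene differed. The number of genes that differed was 1 without Usp7 control replicate 1 or Usp7 knockdown replicate 2, 18 without knockdown replicate 1, 30 without control replicate 2, 10 without Ssrp1 control replicate 1, and 389 and 1109 without replicates 1 and 2 labelled Ssrp1 knockout.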

How the data were processed

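RNA-seq was analysed from gene-level counts that the authors deposited as 1 table for each experiment. Per the submitters' processing notes, cutadapt, HISAT2 and featureCounts were used with the mouse build mm10; versions, annotation release, strand setting and treatment of multi-mapping reads are details not given in the sources used here. Each table held 54232 genes and 92 spike-in rows, which summed to 0 and were left out. Symbols and positions came from GENCODE M21 (GRCm38) for 54079 identifiers.

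Genes were kept by filterByExpr (minimum count 10, a CPM of about 0.566), scaled by TMM and tested with the edgeR 4.0.16 quasi-likelihood F test in R 4.3.3, with Benjamini-Hochberg adjustment over all genes tested and a threshold of 0.05. CPM values used the effective library sizes. The 2 control and 2 knockdown libraries were fitted alone, and the difference between experiments was fitted over 8 libraries. The alternatives were DESeq2 1.42.0, limma-voom 3.58.1, other scalings and filters, a GC and length correction (mgcv 1.9.3), a replicate block and leaving out each library. With 1 library left out, the lone sample is assumed to vary like the pair that remains. The scripts were tested on simulated data.

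Named genes were Usp7, a fixed set of its partners and pluripotency factors, per direction the 12 largest called changes at a mean of at least 5 CPM without overlap and the 6 most abundant called genes, and up to 4 called members of each of 42 gene lists. Other genes are named as list members, and those singled out among them were chosen after their values were seen. The members and lists were chosen with earlier results of these data known. Ratios of low counts carry exact 95% binomial intervals, which cover counting error only. Promoter windows came from RefSeq (GRCm38.p6).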

Additional observations from a re-analysis of the deposited data

Results flagged for a closer look

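For 15 of the genes named, the change in the Usp7 knockdown differed from that in the libraries labelled Ssrp1 knockout by the edgeR quasi-likelihood test of the difference itself. Differences are given in log2 units, Usp7 experiment minus Ssrp1 experiment, with 2 libraries in each of 4 groups.

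Germline genes were the largest group. The named genes were picked in part for large changes in the Usp7 knockdown, which favours a difference from the other experiment. The differences were 4.05 for Taf7l (adjusted p = 0.0104), 4.20 for Tdrd1 (adjusted p = 0.0078), 3.73 for Tex101 (adjusted p = 0.0157), 3.54 for Mov10l1 (adjusted p = 0.0104) and 2.79 for Slc25a31 (adjusted p = 0.0375). In all 5 the fitted change in the Ssrp1 experiment was also above 0, from 0.53 to 2.15. Outside that list, the differences were 7.02 for Zfp541 (adjusted p = 0.0201), 7.003 for Mlc1 (adjusted p = 0.0157) and 3.80 for Btbd18 (adjusted p = 0.014). The repressor gene E2f6 differed by 1.67 (adjusted p = 0.0314) and the p53 target Perp by 2.83 (adjusted p = 0.029).

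For Ccnd2 the difference of 4.84 (adjusted p = 0.00391) rested mainly on a fitted log2 change of -3.85 in the Ssrp1 experiment. For Neurod1 the difference of 4.13 (adjusted p = 0.0119) combined 2.02 in the Usp7 knockdown with -2.10 in the Ssrp1 experiment. Mcm3ap differed by 1.59 (adjusted p = 0.0495) and Platr14 by -2.87 (adjusted p = 0.0258). Usp7 itself differed by -1.53 (adjusted p = 0.0369) and had a fitted change of -0.11 in the Ssrp1 experiment. Of the libraries labelled Ssrp1 knockout, replicate 1 had an Ssrp1 count near that of its controls.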

How the results depend on the processing

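With 2 libraries a group, counts of calls moved far more than directions. All 476 called genes kept their direction under each alternative in which they were tested. Scaling by DESeq2 size factors (502), upper quartile scaling (448), limma-voom (443), the CPM filter (512) and DESeq2 (697) stayed within 1.5 times 476, although DESeq2 called 208 lower. With no filter 100 genes were called, 95 higher and 5 lower, with 6 p53 targets, 6 2-cell-like genes and 1 stress response gene. In the joint fit of 8 libraries 78 were called, 74 higher and 4 lower, with 2 p53 targets, 5 2-cell-like, 21 germline and 1 stress response genes. The GC and length correction gave 745, of which 267 lower, with 16 stress response genes.

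Replicate numbers are shared by control and knockdown, but no label says that they mark a pair, and 2 pairs with a correlation of deviations of 0.14 do not settle it. With the replicate block 1471 genes were called, 964 higher and 507 lower, with 18 stress response genes; with GC and length correction as well, 1765, 883 higher and 882 lower, with 20. Leaving out 1 library gave 42 to 3770 calls, 41 to 2032 higher and 1 to 1738 lower, 1 to 26 p53 targets, 2 to 20 2-cell-like genes, 17 to 41 germline genes and 0 to 22 stress response genes.

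Genes that differed between the experiments numbered 673 with DESeq2, 945 with no filter, 525 with a replicate block within experiment and 1 to 1109 without 1 library. The no-filter and joint settings change the genes tested and the shared spread; otherwise the cause was not tested.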
